A study of Mus musculus with 12 samples.

Results

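The library labelled EedcKO H3K27ac was compared with the wild type H3K27me3 library, promoter by promoter and summit by summit. These are 2 of the 12 libraries of the study. The pair was chosen because earlier results of these data had shown that both profiles were alike, so their likeness is given below as a description and not as a finding. Among 55276 promoters, 1 window for each gene symbol, 48425 had a mean of at least 2 CPM (the promoter's count scaled by the library's total) over both libraries. Of these, 1977 (4.08%) were marked, meaning that the mean of both libraries was at least 4 times the mean of both IgG controls, with 1 CPM added to each side. The marked set held 1323 promoters of named protein-coding genes. The receptor gene Erbb4 lay just inside this limit, at 4.01 times IgG, with 183 counts in wild type H3K27me3 and 299 in the library labelled EedcKO H3K27ac. The gene model Gm21321, with 307 and 377 counts, lay just outside it.

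All libraries came from untreated forebrain tissue of C57BL/6 mouse embryos at E12.5 (embryonic day), from embryos labelled either wild type or EedcKO. Histone marks, RNA polymerase II (RNA-Pol2) and IgG were profiled by CUT&Tag, in which an antibody directs a transposase to cut nearby DNA, and Eed with its input by a method labelled X-ChIP. Each genotype and target had 1 library, so nothing below has a replicate check, and neither tests nor p-values are given. Not given in the sources used here are the Cre driver, the deleted part of Eed, and the sex and number of the embryos. In the wild type H3K27ac library the neural genes Sox2 and Emx2, active in the forebrain, held 90 and 74 counts, against 8 and 17 in wild type IgG, while the 39 Hox promoters, of genes used in the trunk and hindbrain, had a median of 18 against 21 in IgG. Total promoter counts over the 12 libraries ran from 948955 to 3842779, and were 3628039 for the library labelled EedcKO H3K27ac and 3161526 for wild type H3K27me3.

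Polycomb repressive complex 2 (PRC2) trimethylates lysine 27 of histone H3, and the promoters that carry H3K27me3 are mostly those of silent developmental regulators. Eed is a core subunit of PRC2 without which the complex is unstable and does not methylate, and it docks on H3K27me3 that is already present. H3K27ac occupies the same lysine, so 1 histone tail cannot carry both, and it marks active promoters and enhancers.

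Read by the labels, acetylation at marked promoters was far higher in EedcKO. The library labelled EedcKO H3K27ac exceeded wild type H3K27ac by a median of 3.39 on the log2 scale and was at least 2-fold higher at 1962 of the 1977 marked promoters (99.2%), and at least 2-fold lower at 0. The library labelled EedcKO H3K27me3 was below wild type H3K27me3 by a median log2 ratio of -3.03, and at least 2-fold lower at 1953 of them (98.8%). Both statements share their libraries with the comparison below, and the marked set was chosen on 2 of those libraries, so nothing is read from these shares. A median marked promoter held 578 counts in wild type H3K27me3 and 794 in the library labelled EedcKO H3K27ac. It held 38 in wild type H3K27ac, 37 in the library labelled EedcKO H3K27me3, and 27 and 36 in the wild type and EedcKO IgG libraries. In CPM, wild type H3K27ac was at 19.5 and wild type IgG at 19.1. The library labelled EedcKO H3K27me3 was at 21.9 and EedcKO IgG at 23.0. Whether the EedcKO histone labels were exchanged was not tested, and the labels are kept as deposited.

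At promoters with a wild type H3K27ac summit and no wild type H3K27me3 summit, 5002 in all and called active promoters here, the order was different. Their median was 95 counts in wild type H3K27ac and 60 in the library labelled EedcKO H3K27me3. It was 44 in wild type H3K27me3 and 41 in the library labelled EedcKO H3K27ac, where IgG held 24 in wild type and 39 in EedcKO. In CPM the IgG medians were 17.0 and 24.9. Those of the histone libraries were, in the same order, 48.9, 35.5, 13.9 and 11.3, so both libraries of the pair lay below their IgG. The housekeeping gene Actb, which encodes beta-actin, held 105, 149, 47 and 68 counts in the histone libraries in the same order, with 12 and 48 in the IgG libraries. The share of all promoter counts that fell in marked promoters was 52.2% in the library labelled EedcKO H3K27ac and 43.7% in wild type H3K27me3. In the other 6 CUT&Tag libraries it was between 3.93% and 4.67%. Marked promoters were chosen on high counts in the pair, so the contrast follows in part from that choice.

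Promoters that show the range of the comparison are those of Hoxd12, a limb and trunk patterning gene near the common ratio, Sox1, a neural progenitor gene above it, and Pou4f1, a sensory neuron gene below it. They are shown from 250 bases before to 50 after the start site (RefSeq, GRCm38.p6), with each CG dinucleotide in capitals, because CG-rich promoters are the usual sites of PRC2. Hoxd12 lies at chr2:74674763-74675062 on the plus strand, Sox1 at chr8:12395269-12395568 on the plus strand and Pou4f1 at chr14:104467950-104468249 on the minus strand.
Hoxd12: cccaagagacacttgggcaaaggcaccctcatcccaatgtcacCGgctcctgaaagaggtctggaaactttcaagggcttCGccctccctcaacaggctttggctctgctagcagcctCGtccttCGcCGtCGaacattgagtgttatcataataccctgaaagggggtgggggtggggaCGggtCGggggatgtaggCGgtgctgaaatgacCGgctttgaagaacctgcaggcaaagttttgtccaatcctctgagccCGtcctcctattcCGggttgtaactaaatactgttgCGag
Sox1: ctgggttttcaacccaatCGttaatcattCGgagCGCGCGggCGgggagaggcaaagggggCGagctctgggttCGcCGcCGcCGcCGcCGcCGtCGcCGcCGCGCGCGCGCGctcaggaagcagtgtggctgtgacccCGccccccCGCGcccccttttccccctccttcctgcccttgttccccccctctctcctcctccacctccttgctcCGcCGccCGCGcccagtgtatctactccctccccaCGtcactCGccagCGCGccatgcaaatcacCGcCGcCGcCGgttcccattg
Pou4f1: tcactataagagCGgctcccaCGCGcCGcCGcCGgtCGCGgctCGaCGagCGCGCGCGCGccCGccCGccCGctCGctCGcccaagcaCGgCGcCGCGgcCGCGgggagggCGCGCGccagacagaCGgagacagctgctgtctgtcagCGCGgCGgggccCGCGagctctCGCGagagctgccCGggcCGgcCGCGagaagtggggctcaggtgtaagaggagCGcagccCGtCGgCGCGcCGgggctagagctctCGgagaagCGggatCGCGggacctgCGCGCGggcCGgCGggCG
The Hoxd12 sequence held 13 CG dinucleotides, Sox1 37 and Pou4f1 57. CG reads the same on both strands. At least 1 was present in 94.6% of the 32851 promoters of that table, whose median was 7. Sox1 and Pou4f1, which lay on opposite sides of the common ratio, both had more CG than 94.4% of these promoters.

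Across the marked promoters, both profiles kept nearly 1 ratio to each other. In CPM, the library labelled EedcKO H3K27ac was higher than wild type H3K27me3 by a median log2 ratio of 0.26, or 1.20-fold. This common ratio was subtracted, and every ratio of a gene below is a relative log2 ratio, the library labelled EedcKO H3K27ac over wild type H3K27me3, with 1 CPM added to both. Of the marked promoters, 93.9% lay within 1.3-fold of the common ratio and 99.7% within 2-fold. Only 4 were at least 2-fold above it (0.202% of the marked promoters) and 1 at least 2-fold below (0.0506%). The relative log2 ratios had a standard deviation of 0.20, and the counting error from both counts was 0.094. Among the 442 promoters with at least 1000 counts in each library the standard deviation was 0.10 and the counting error 0.053, so the spread was wider than counting alone in both sets. Between the IgG libraries of both genotypes, at far lower counts, it was 0.59 over the marked promoters with a counting error of 0.43.

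**Figure D1:**
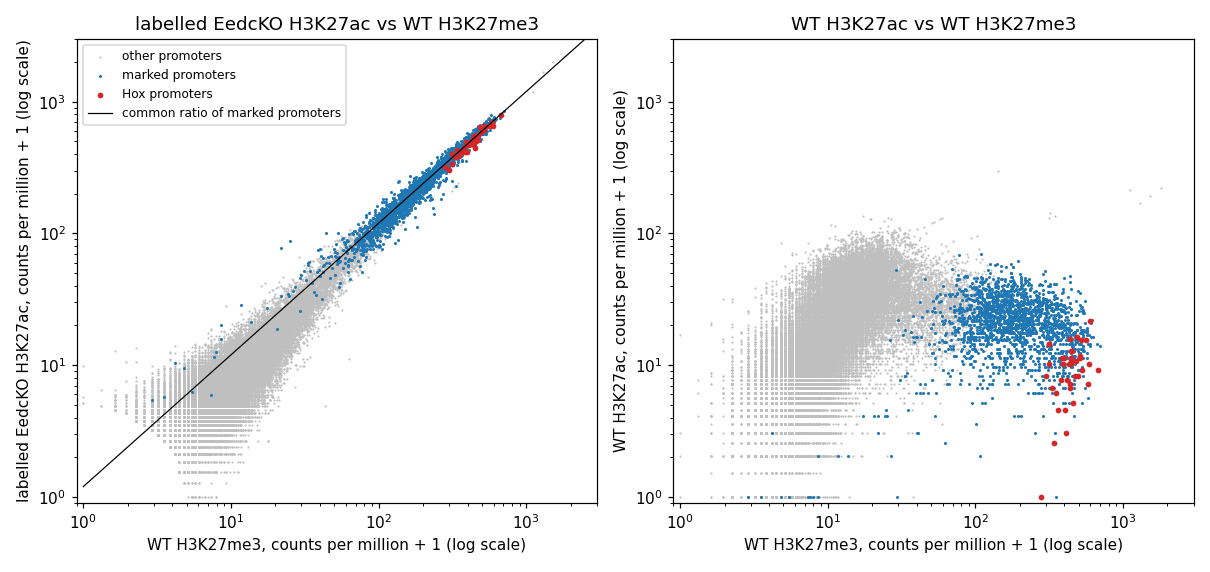
CPM plus 1 at each promoter on log axes, with wild type H3K27me3 on the horizontal axis and the library labelled EedcKO H3K27ac (left) or wild type H3K27ac (right) on the vertical axis. Blue points are the 1977 marked promoters, red points the 39 Hox promoters and grey points the others, and the marked promoters follow the line of the common ratio on the left but not on the right.

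In the plot of promoter levels, the marked promoters form a narrow band along the common ratio for the pair and a cloud for both wild type marks. Over these 1977 promoters the log2 levels of the library labelled EedcKO H3K27ac and wild type H3K27me3 had a Pearson correlation of 0.977 and a Spearman correlation of 0.980. With wild type H3K27ac the same library had values of 0.043 and -0.17. The marked set was chosen on high counts in the pair, and over all 48425 promoters the contrast was smaller. There the pair had 0.92 and 0.82, and the same library with wild type H3K27ac 0.48 and 0.68. These correlations are across promoters, which are not replicates, and 341 of the marked windows overlap the marked window before them and share reads with it. Of the 200 highest promoters in each library, 178 were shared.

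The Hox genes, which give the body axis its positional identity, were all marked. In the 39 Hox promoters the wild type H3K27me3 counts lay between 883 and 2136 and those of the library labelled EedcKO H3K27ac between 1088 and 2849. Their relative log2 ratios had a median of -0.04 and ran from -0.25 to 0.14, and none passed 1.3-fold in either direction. Hoxd12 (chromosome 2, 74674013 to 74676012) held 2136 counts in wild type H3K27me3 and 2849 in the library labelled EedcKO H3K27ac, a relative log2 ratio of -0.04. The same window held 16 counts in wild type H3K27ac, 18 in the library labelled EedcKO H3K27me3, and 22 and 33 in the IgG libraries. By label, the same Hoxd12 counts give a log2 ratio of 6.41 for H3K27ac and -5.86 for H3K27me3 between EedcKO and wild type. The 4 clusters did not stand apart: their medians were 0.02 for Hoxa, -0.05 for Hoxb, -0.12 for Hoxc and -0.04 for Hoxd.

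Among marked promoters of protein-coding genes with a standard name, Sim2, Pax2, Lbx1 and Tlx2 were, with Hoxd12, among the 12 with the highest mean level. Sim2, a midline transcription factor, held 1833 counts in wild type H3K27me3 and 2864 in the library labelled EedcKO H3K27ac, with a relative log2 ratio of 0.19. Pax2, a kidney and midbrain regulator, held 1911 and 2777, with 0.08. Lbx1, which specifies spinal cord and muscle precursors, held 2108 and 2747, with -0.07. Tlx2, a neural crest regulator, held 1764 and 2722, with 0.17. Wild type H3K27ac held 9, 39, 26 and 33 counts at these 4 promoters, where wild type IgG held 23, 38, 27 and 35.

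Regulators of midbrain, hindbrain and spinal cord were also near the common ratio. All 35 were marked, their median was 0.01, and only Pou4f1 passed 1.3-fold. Of 60 regulators of tissues outside the nervous system 51 were marked, with a median of 0.01, and 0 passed 1.3-fold. Of 26 genes of the ventral forebrain 23 were marked, with a median of 0.08, and 0 passed it. Dlx1 and Dlx2, neighbouring homeobox genes of the ganglionic eminences, lay on both sides of 0: Dlx1 held 626 and 779 counts with a relative log2 ratio of -0.14, and Dlx2 held 516 and 771 with 0.12. Nkx2-1, which specifies the medial ganglionic eminence, held 1342 and 1945 counts, with 0.08. Of 28 genes of the cortical hem and choroid plexus 24 were marked, with a median of 0.06. Among them Lmx1a, a roof plate regulator, held 1535 and 2393 counts with 0.18, and the signal Wnt3a held 961 and 1382 with 0.07. The Wnt ligand Wnt8b was the exception, with 653 and 643 counts and -0.48, which turns to 0.07 with the median of all promoters as centre. The 27 marked secreted ligands among 33 had a median of 0.01 and none past 1.3-fold, with Bmp4, a dorsal patterning signal, at 815 and 1182 counts and 0.08.

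Neuronal genes were marked less fully than the lists above, but more often than the 4.08% of all promoters tested. Of 19 neurogenic genes 7 were marked, with a median of 0.04, and of 30 cortical neuron genes 12, with a median of -0.03. None of either list passed 1.3-fold, where 93.9% of all marked promoters lay within it. Neurog2, which drives cortical neurogenesis, held 825 counts in wild type H3K27me3 and 1254 in the library labelled EedcKO H3K27ac, with a relative log2 ratio of 0.15. Eomes, the factor of intermediate progenitors, held 778 and 1146, with 0.10. Tbr1, a factor of deep-layer neurons, held 624 and 807, with -0.09. By label, H3K27ac was higher by 3.52 for Neurog2, 4.88 for Eomes and 3.01 for Tbr1 on the log2 scale. It was at least 2-fold higher at 99.2% of all marked promoters, which were chosen on high counts in that library. Nothing is read from the direction at these 3 genes.

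**Figure D2:**
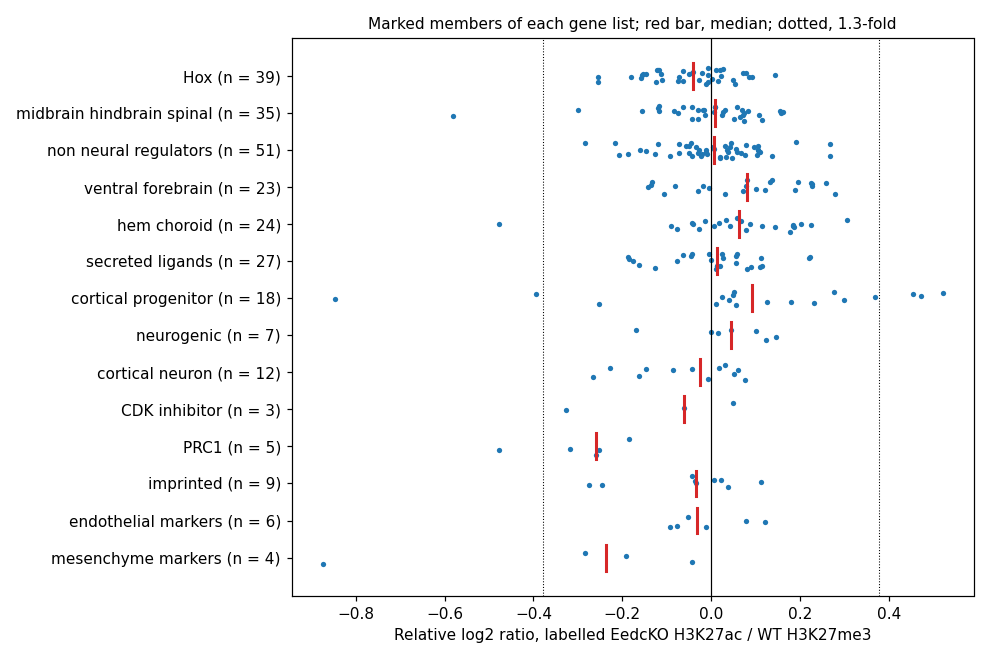
Relative log2 ratio of the library labelled EedcKO H3K27ac over wild type H3K27me3 for the marked members of each gene list with at least 3 marked members. Each point is 1 promoter, red bars are medians and dotted lines mark 1.3-fold; the cortical progenitor list has points past both dotted lines, while the 39 Hox points lie between -0.25 and 0.14.

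The strip plot of the gene lists shows that most members lay between the 1.3-fold lines. Because so few marked promoters passed 2-fold, the 1.3-fold limit was added after the data were seen. Under it, 41 of 1977 marked promoters were above (2.07%), 17 of them named protein-coding genes, and 80 were below (4.05%), 45 of them named. The direction of the lower set depends on the scaling, because with the median of all 48425 promoters as centre each ratio moves up by 0.55. With that centre 30 of the 80 stay below 0, and with TMM scaling 25.

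The cortical progenitor list had members on both sides. Of 28 genes 18 were marked, with a median of 0.09. Of the 18, 3 were above 1.3-fold (Sox1, Sox2 and Hmga2) and 2 below (Nr2f1 and Nr2f2). With IgG subtracted only Hmga2 of the 3 stayed above 1.3-fold, at 0.50. Sox2, the factor that maintains neural progenitors (chromosome 3, 34649405 to 34651404), held 267 counts in wild type H3K27me3 and 511 in the library labelled EedcKO H3K27ac. Its relative log2 ratio was 0.47, with an exact 95% counting interval from 0.26 to 0.70. The same window held 90 counts in wild type H3K27ac and 60 in the library labelled EedcKO H3K27me3, and 8 and 30 in wild type and EedcKO IgG. Sox2 thus had less wild type H3K27me3 and more wild type H3K27ac than the median marked promoter, which held 578 and 38.

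Sox1 held 351 and 662 counts, with a relative log2 ratio of 0.45, and Sox3, the X-linked member of the same family, held 154 and 275, with 0.37. Their wild type and EedcKO IgG counts were 12 and 46 for Sox1 and 8 and 28 for Sox3. So IgG was higher in EedcKO at all 3 Sox promoters. With each genotype's IgG subtracted, Sox2 came to 0.36 and Sox1 to 0.31, both inside 1.3-fold (0.38 on the log2 scale). Hmga2, a chromatin protein of young progenitors, held 336 and 664 counts, with 0.52 (interval 0.34 to 0.72). Emx2, a cortical patterning gene, held 387 and 603 counts, with 0.18. Pax6, also a progenitor factor, was near the common ratio at 999 and 1394 counts, with 0.02, as was Lhx2 at 421 and 599, with 0.05.

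Both COUP-TF genes, nuclear receptors that pattern the caudal cortex, lay below. Nr2f1 (chromosome 13, 78198757 to 78200756) held 239 counts in wild type H3K27me3 and 181 in the library labelled EedcKO H3K27ac, with a relative log2 ratio of -0.85 (interval -1.14 to -0.57). Nr2f1 thus had fewer raw counts in the library with the larger total. Nr2f2 held 592 and 618 counts, with -0.39 (interval -0.56 to -0.23), and turns above 0 with the median of all promoters as centre (0.15). With marked promoters taken at 2 times IgG it came to -0.36, inside 1.3-fold. By label, H3K27ac at Nr2f1 and Nr2f2 was higher in EedcKO than in wild type, by 1.68 and 3.58 on the log2 scale. It was at least 2-fold higher at 99.2% of all marked promoters.

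**Figure D3:**
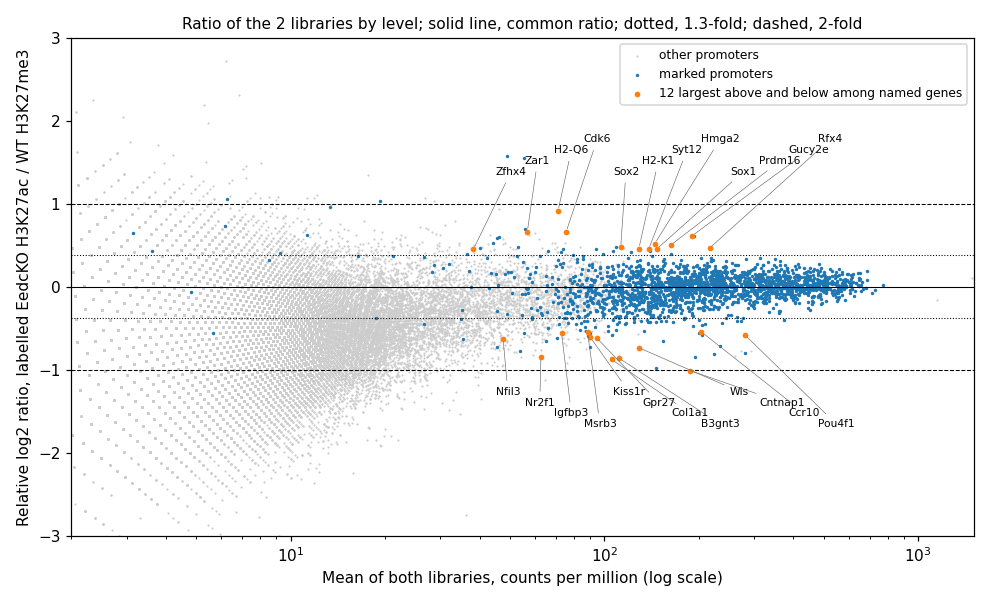
Relative log2 ratio of the library labelled EedcKO H3K27ac over wild type H3K27me3 against the mean of both in CPM (log axis) for all 48425 promoters. Blue points are marked promoters, orange points the 12 protein-coding genes with the largest ratio in each direction (1 gene where windows overlap), and the band of marked promoters lies around 0 while most other promoters lie below it.

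Among protein-coding genes with a standard name, the largest ratios above were at H2-Q6, an MHC class I gene, with 137 and 359 counts and 0.92, Zar1, an oocyte gene, with 123 and 271 counts and 0.67, and Cdk6, a cell cycle kinase, with 164 and 360 counts and 0.67. Gucy2e, a retinal guanylate cyclase, held 424 and 894 counts, with 0.62, Prdm16, a regulator of radial glia, held 381 and 743, with 0.50, and Rfx4, a forebrain patterning factor, held 515 and 978, with 0.47. H2-K1, Syt12 and Zfhx4 had ratios of 0.46, 0.45 and 0.45. In the plot of ratio by level these genes lie at low and middle levels, not among the highest promoters. With IgG subtracted Zfhx4 came to 0.82. The 4 promoters at least 2-fold above were none of these: Gm16505, with 66 and 279 counts, and Gm48530, with 76 and 314, whose windows overlap, and the 5S ribosomal RNA copies n-R5s100 and n-R5s149. Copies of 5S RNA are near-identical, and their counts are uncertain. They were singled out after their values were seen.

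The largest ratio below was at Cntnap1 (chromosome 11, 101169523 to 101171522), a paranodal adhesion gene, with 747 counts in wild type H3K27me3, 507 in the library labelled EedcKO H3K27ac and a relative log2 ratio of -1.01. Its IgG counts were 27 in wild type and 69 in EedcKO. Col1a1, a mesenchymal collagen, held 404 and 301 counts, with -0.87, and B3gnt3, a glycosyltransferase, held 425 and 320, with -0.86. Wls, which carries Wnt ligands to the cell surface, held 474 and 390 counts, with -0.73. Pou4f1 held 987 and 904 counts, with -0.58, and was the highest of the 12 by level. Nfil3, Gpr27 and Kiss1r lay between -0.63 and -0.60, and Igfbp3, Msrb3 and Ccr10 between -0.56 and -0.54. For IgG, Wls held 26 counts in wild type and 16 in EedcKO, Igfbp3 24 and 18 and Msrb3 28 and 12, so IgG was lower in EedcKO at these 3 genes. With IgG subtracted Msrb3 came to -0.37, inside 1.3-fold, while Col1a1 came to -1.39 and B3gnt3 to -1.37. Of these 12 genes, which include Nr2f1, all but Ccr10 stay below 0 with the median of all promoters as centre, and all but Ccr10, Igfbp3 and Msrb3 with TMM scaling.

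Genes of the Polycomb complexes were themselves marked in part, where 4.08% of all promoters tested were marked. Of 20 genes of Polycomb repressive complex 1, which binds H3K27me3 and ubiquitinates histone H2A, 5 were marked, and all 5 lay below 0, with a median of -0.26. Bmi1, a ring-finger subunit, held 296 and 291 counts, with -0.48 (0.07 with the median of all promoters as centre), and was the only 1 of the 5 past 1.3-fold. The chromobox subunit Cbx8 held 1086 and 1251 counts, with -0.25. All 5 lie above 0 with the median of all promoters as centre. Of 13 measured PRC2 genes only Epop, an accessory subunit, was marked, with 738 and 1119 counts and 0.14. The Eed promoter held 31 counts in wild type H3K27me3 and 35 in the library labelled EedcKO H3K27ac, against 20 and 50 in the IgG libraries. It held 130 in wild type H3K27ac and 79 in the library labelled EedcKO H3K27me3. A promoter window does not check the deletion, whose place in the gene is unknown here.

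Of 7 genes for inhibitors of cyclin-dependent kinases, which stop the cell cycle and are classic Polycomb targets, 3 were marked. Cdkn2a held 1123 and 1596 counts, with 0.05, Cdkn2b held 568 and 747, with -0.06, and Cdkn2c held 287 and 314, with -0.33. Of 35 measured imprinted genes 9 were marked, with a median of -0.03 and none past 1.3-fold. Among markers of other cell types of the sample, 6 of 12 endothelial, 4 of 12 mesenchymal, 2 of 12 glial, 1 of 12 erythroid and 0 of 12 microglial promoters were marked. The 4 mesenchymal promoters had a median of -0.24, all below 0, but a median of 0.31 with the median of all promoters as centre, with Foxc1 at 1444 and 1628 counts and -0.28 and Twist1 at 1429 and 1903 and -0.04. In bulk tissue, the share of cells that carry a mark and the amount in each cell cannot be told apart. Of 22 housekeeping promoters 0 were marked, and of 47 ribosomal protein promoters only Rpl3, with 177 and 268 counts and 0.14.

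Away from the marked promoters the ratio was lower and followed the level. Promoters below IgG had a median relative log2 ratio of -0.61, those at 1 to 2 times IgG -0.34 and those at 2 to 4 times IgG -0.13. Those at 4 to 8 times IgG stood at -0.03, at 8 to 16 times IgG at 0.02 and over 16 times IgG at 0.01. Active promoters, with the mark of acetylation in wild type, had -0.51, close to -0.57 over all 46448 unmarked promoters. At unmarked promoters, and to a like degree at active ones, the library labelled EedcKO H3K27ac had relatively less than wild type H3K27me3. Its share in marked promoters was larger. At active promoters its median was 11.3 CPM against 24.9 in EedcKO IgG. Wild type H3K27me3 had 13.9 against 17.0 in wild type IgG, so the ratio there is one between values below IgG.

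Wild type H3K27ac, wild type Eed and RNA-Pol2 did not enter the ratio. Their median counts were lower in the sets above and below 1.3-fold than in the set within it. IgG was lower there too. In CPM, wild type IgG had medians of 8.5 above, 19.8 within and 14.9 below, and wild type H3K27ac 14.9, 20.1 and 16.7. Set against IgG, wild type H3K27ac and wild type RNA-Pol2 were thus not lower above and below. A wild type H3K27ac summit was present at 4.88% of the 41 promoters above, 3.18% of the 1856 within and 5.0% of the 80 below. Over all marked promoters the share was 3.29%, and the sets above and below are small. The median wild type H3K27ac count was 29 above, 39 within and 32.5 below, where wild type IgG held 12, 28 and 21. The median wild type Eed count was 72, 101 and 78, with 21, 24 and 23.5 in input, and a wild type Eed summit was present at 65.9%, 80.2% and 71.3% of them. Of the 41 promoters above, 8 were copies of 5S ribosomal RNA. These held at most 4 counts in wild type Eed and in wild type H3K27ac, and at most 2 in wild type IgG. They enter every median and share of the set above, which was not computed without them. RNA-Pol2 in CPM was 14.9, 22.6 and 18.5 in wild type and 12.2, 20.9 and 19.3 in EedcKO. Wild type H3K27me3 itself held 160, 604.5 and 375 counts, so both outer sets were also the weaker marked promoters. The ratio of EedcKO to wild type IgG, a log2 median of 0.25 over all marked promoters, was 0.18, 0.24 and 0.34. EedcKO IgG was below wild type IgG in CPM at 12 of the 41 promoters above, 24 of the 80 below and 637 of all 1977, and its part in the ratios was not tested beyond subtracting it.

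Summits extend the comparison beyond promoters. The library labelled EedcKO H3K27ac had 10164 summits and wild type H3K27me3 had 10662, each called in 1 library. Of the former 55.5%, and of the latter 53.0%, had a summit of the other list within 500 bp, and 87.7% of each within 5 kb. Each list was split into 4 bins of equal size by the authors' score. In the library labelled EedcKO H3K27ac 79.7% were shared in the highest bin and 28.8% in the lowest. In wild type H3K27me3 these shares were 75.5% and 32.3%. A wild type H3K27ac summit lay within 500 bp of 3.99% of the former summits and of 5.97% of the latter. Within 1 kb of a start site lay 29.3% and 30.1% of the summits of the pair, against 54.1% of wild type H3K27ac summits.

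**Figure D4:**
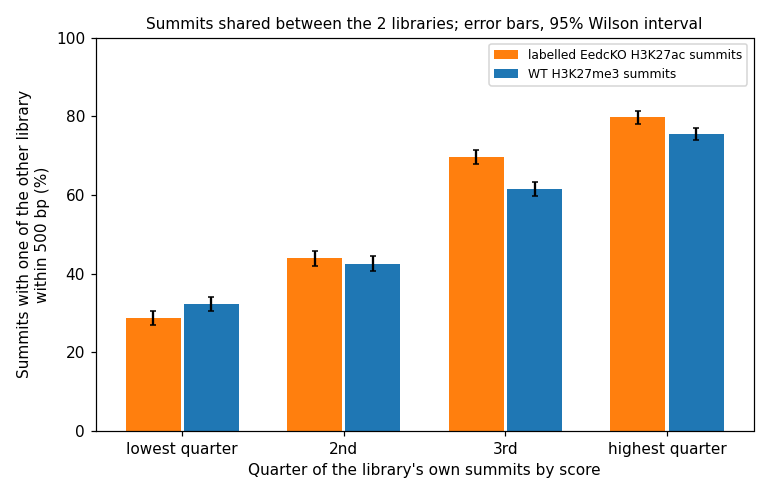
Share of summits (%) with a summit of the other library within 500 bp, for 4 bins of each library's own summits ordered by the authors' score. Orange bars are the library labelled EedcKO H3K27ac, blue bars wild type H3K27me3, error bars are 95% Wilson intervals, and the share grows from 28.8% to 79.7% and from 32.3% to 75.5%.

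In the plot of shared summits the share grew with the score in both lists. A promoter window held a summit of both lists at 2550 promoters, of the library labelled EedcKO H3K27ac only at 724 and of wild type H3K27me3 only at 989. The 724 had a median relative log2 ratio of -0.06, with 120 counts in the library labelled EedcKO H3K27ac and 90 in wild type H3K27me3, and the 989 had -0.50, with 92 and 100. Across the Hox clusters, where broad signal gives few summits, Hoxa had 1 in each list, Hoxb 12, Hoxc 1 and Hoxd 2. Those of Hoxc lay 43 bp apart and the nearest pair of Hoxd 61 bp, but the Hoxa summits were in different places, the one of wild type H3K27me3 being 23593 bp from the nearest of the other list. Wild type H3K27ac had 0 summits in the 4 clusters.

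Where promoters past 1.3-fold stood side by side, the largest run was in the major histocompatibility complex (MHC), the gene-dense region of the class I antigen-presenting genes on chromosome 17. It was singled out after its values were seen. A run of 10 neighbouring marked promoters (36144018 to 36217411), all of them gene models without a standard gene name such as Gm8909 and Gm20478, lay below. Gm20478 held 1051 counts in wild type H3K27me3 and 827 in the library labelled EedcKO H3K27ac, with a relative log2 ratio of -0.80, and Gm8909, whose window overlaps it, held 838 and 656, with -0.81. Over the run the relative log2 ratios lay between -0.84 and -0.56, and all 10 stay below 0 with the median of all promoters as centre. The weakest, Gm6659 at -0.559, stays below 0 by little, since that centre moves each ratio up by 0.547. With TMM scaling marked promoters moved up by a median of 0.564, more than the weakest ratio of the run. Unmarked promoters within the run were not counted. Of them, H2-T3 held 275 and 525 counts with a relative log2 ratio of 0.47, on the other side. Gm4246 at -1.38, Gm5682 at -1.18 and Gm20447 at -0.41 lay below 0. The summed counts of the run were 5755 and 4799, against 188 in wild type IgG and 162 in EedcKO IgG. In CPM, IgG was 133 and 104, so it too was lower in EedcKO, where IgG at marked promoters was otherwise higher by a median log2 ratio of 0.25. Input in CPM was 119 in wild type and 104 in EedcKO. Their part in the run was not tested.

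The plot of the MHC region shows marked promoters of class I genes on the other side. All 7 marked H2 promoters, among them the pseudogenes H2-K2 and H2-Bl, lay above 0, and H2-K1, H2-Q6 and H2-Bl were above 1.3-fold. Of 13 unmarked H2 promoters with at least 100 counts over both libraries, 6 lay above 0 and 7 below. This count takes every H2 symbol, not only class I genes. Those below include H2-Ke6 at -0.98, H2-Pb at -0.47, H2-DMa at -0.38 and H2-DMb2 at -0.13, which are not class I genes. H2-T10, H2-M5 and H2-Q5, also below, lay between -0.19 and -0.01. Over all unmarked promoters the median was -0.57. H2-Bl held 119 and 269 counts, with 0.70, and H2-Q10 held 547 and 954, with 0.34. Over the region from H2-K2 to H2-M2, 24 promoters were marked, 3 above and 11 below 1.3-fold, and the standard deviation of their ratios was 0.52, against 0.20 over the marked promoters elsewhere. Class I genes are near-identical copies, so reads can be placed on the wrong copy, and the values of single genes here are uncertain.

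**Figure D5:**
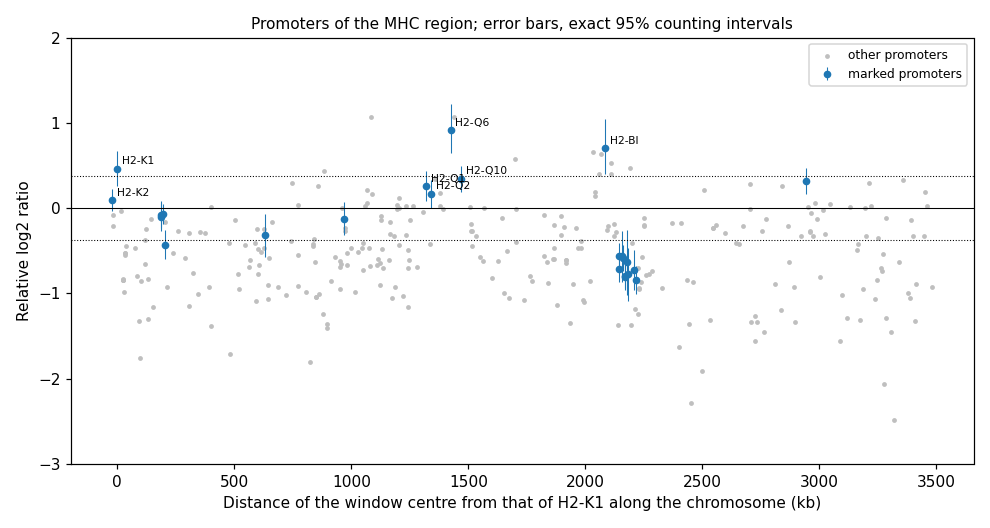
Relative log2 ratio of the library labelled EedcKO H3K27ac over wild type H3K27me3 for promoters of the MHC region against their distance in kb from the H2-K1 window. Blue points are the 24 marked promoters with exact 95% counting intervals, grey points the others, dotted lines mark 1.3-fold, and the 7 labelled H2 genes lie above 0 while a run of 10 lies between -0.84 and -0.56.

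Apart from the clusters of 5S copies, smaller runs of 3 promoters lay around Sox2, where Gm42692, Sox2 and Gm27611 were above, around Nr2f1, where Gm38604, A830082K12Rik and Nr2f1 were below, and around Cntnap1, where Plekhh3 and Ccr10 were also below. Neighbouring windows can share signal, and these are not separate events. By chromosome, the marked medians of the autosomes lay between -0.06 and 0.06, and the X chromosome, with 33 marked promoters, was at 0.00.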

How the data were processed

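The series holds 8 CUT&Tag and 4 X-ChIP libraries. Per the submitters' processing notes ChIPseeker 1.22.1, deepTools 3.4.0, MACS2 2.2.7.1 and Bowtie2 2.4.1 were used, with the build mm10. The deposited promoter files give read counts as whole numbers in 55385 windows, all but 2 of them 2 kb long, although the authors named the files for RPKM. For each peak the deposited summit files give a position and a score, which has the form of −log10 p or −log10 q. The sources used here do not say which. The authors' score ranked summits within a list only. Dates had replaced 27 symbols in the counts labelled EedcKO H3K27ac, so the symbols came from another table through the Ensembl identifier.

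Counts were divided by the library's total promoter count (CPM), 1 was added, and log2 ratios were centred on the median of the marked promoters. The members, the gene lists and the comparison were chosen with earlier results of these data known. Named genes were the 12 highest marked promoters, the 12 largest ratios in each direction with at least 100 counts, each among protein-coding genes with a standard name, and members of the lists. Where windows of neighbours overlap, only the gene with the larger change was named, which left out Plekhh3 beside Cntnap1. Intervals of ratios are exact 95% intervals of both counts, those of shares are Wilson intervals. Both cover counting error only, since each genotype and target had 1 library. The reads carry no molecular identifiers, so the intervals may be too narrow even for that error. The script was tested on simulated data. Python 3.11.15, pandas 2.3.3, scipy 1.17.1 and edgeR 4.0.16 (TMM factors only) were used. A comparison of CG content between the sets is void, because only 49.6% of marked promoters matched a RefSeq promoter within 500 bp. Of the 55276 symbols 20933 matched that table. Some items are not reported here.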

Additional observations from a re-analysis of the deposited data

How the results depend on the processing

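Numbers of promoters past a limit depended on the centre, on the pseudocount and on which promoters count as marked. Promoters at least 2-fold above, 4 in the report, were 27 with the median of all promoters as centre, 30 with TMM scaling, 14 with a pseudocount of 0.25 and 0 with 4. They were 9 and 1 with marked promoters at 2 and 8 times IgG, and 7 where either library had 4 times its own IgG. Promoters at least 2-fold below, 1 in the report, were 0, 0 and 9 with the first 3 of these, 5 with IgG subtracted, 8 and 0 at 2 and 8 times IgG, and 10 with either library. Those 1.3-fold above, 41 in the report, were 1637 with the all-promoter centre, 1675 with TMM, 72 with IgG subtracted, 65 and 26 with pseudocounts of 0.25 and 4, 105 and 11 at 2 and 8 times IgG, and 74 with either library. Those 1.3-fold below, 80 in the report, were 2 with the all-promoter centre, 2 with TMM, 145 with IgG subtracted, 229 and 33 at 2 and 8 times IgG, and 157 with either library. With IgG subtracted all 80 stayed below 0.

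The common ratio of 0.26 was 0.22 and 0.27 at 2 and 8 times IgG and 0.25 with either library. The standard deviation of 0.20 was 0.27 with IgG subtracted, 0.29 and 0.18 with pseudocounts of 0.25 and 4, 0.26 and 0.17 at 2 and 8 times IgG, and 0.25 with either library. The Pearson correlation of 0.977 was 0.965, 0.980, 0.974 and 0.980 with IgG subtracted, at 2 and 8 times IgG and with either library. The shared summits, 55.5%, were 36.1% at 200 bp, 66.3% at 1000 bp, 87.7% at 5000 bp and 62.1% among summits above the median score of each list. Of 14 gene lists 7 had a median above 0, and 14 with the all-promoter centre. Apart from the numbers set by the choice of members, the causes were not tested. No paired analysis was possible because each group had 1 library, and for the same reason none could be left out.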

Other observations

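With at least 100 counts over both libraries, 1741 promoters were at 4 times their own IgG in both libraries, 308 in wild type H3K27me3 only and 236 in the library labelled EedcKO H3K27ac only. On a stricter count, 53 promoters were at 4 times their own IgG in wild type H3K27me3 and under 2 times in the library labelled EedcKO H3K27ac, and 14 the reverse. The 53 had a median of 118 counts in wild type H3K27me3 and 125 in the library labelled EedcKO H3K27ac, a median relative log2 ratio of -0.48, and median IgG counts of 10 in wild type and 39 in EedcKO. Only 4 of them were at least 2-fold below. The 14 had medians of 110 and 257 counts, and 31.5 and 17 in the IgG libraries.

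Windows of the Y chromosome held 219 CPM in wild type H3K27me3 and 165 in the library labelled EedcKO H3K27ac, and the Xist promoter held 6 and 9 counts. The Y values lay below IgG, which held 1051 CPM in wild type and 732 in EedcKO. The sex of the embryos is not read from these values.

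Further runs of at least 3 neighbouring marked promoters, with unmarked promoters skipped, were past 1.3-fold on 1 side. The 3 promoters of Zar1, Gm15847 and Gm42668 lay above, but were spread over 435.9 kb of chromosome 5. On chromosome 15, the gene models Gm28876, Gm10830 and D930007P13Rik lay below, with a median relative log2 ratio of -0.44. On chromosome 8, 4 copies of 5S ribosomal RNA lay above, on 6 to 24 counts in wild type H3K27me3.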
